A study of Mus musculus with 2 samples.

Results

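The genes described here are 10 rapid-response genes: Fos, Fosb, Fosl1, Fosl2, Jun, Junb and Jund, whose proteins form the transcription factor AP-1, the zinc finger factor gene Egr1, the stress-induced factor gene Atf3, and Ier3. They were chosen by name, and a probe was taken as a member's when its RefSeq accession mapped to that gene. All 10 of the 10 members had at least 1 probe, out of 20887 named genes on the array. They were read by 11 probes, Fosl2 having 2, and every member probe was well above background on both arrays. The cells were mouse cavernous primary pericytes of strain C57BL/6, contractile cells that wrap small vessels, cultured from the penis. Both groups were grown in DMEM with 20% FBS, 1% penicillin and streptomycin and 10 nM human PEDF, a secreted factor. Glucose was then set for 72 h at what the labels call 5 mmol (normal) or 30 mmol (high). For each condition, RNA from 3 samples was combined and hybridised to 1 Agilent 1-colour array. There is 1 array per group, so no gene was tested and every difference is between these 2 pools. The age of the mice is not given in the sources used here, and an osmotic control was not analysed here.

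Immediate early genes are transcribed within minutes of a stimulus, such as serum, a growth factor or stress, without new protein synthesis, and their transcripts are short-lived. Signals reach them through MAP kinases, which act on factors such as SRF with its Elk partners and CREB at their promoters. A Fos protein does not pair with itself and binds DNA as a dimer with another leucine zipper protein, typically a Jun protein, whereas Jun proteins can also pair with themselves. In vessel wall cells the AP-1 and Egr factors are known for inducing genes of growth, migration, matrix turnover and inflammation.

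The promoters of 8 of the 10 members are in the RefSeq promoter table of assembly GRCm38.p6; Egr1 and Fosl1 are named only. The 250 bases before the transcription start are printed for 5 of them. Fos is shown as the founding member, whose probe was printed 10 times on each array, Fosb and Fosl2 as the members whose windows hold an Egr motif, and Atf3 and Ier3 as the members with the lowest and the highest ratio. Letters in capitals are matches, on either strand, to 1 of 6 motifs. The AP-1 site was searched as TGANTCA. The cyclic AMP response element was searched in full as TGACGTCA, and as TGACG, a core that lies inside it, so every full match also holds the core. The Egr site was searched as GCGNGGGCG, the SRF site as the CArG box, and the TATA box as TATAAA.
Fos, GRCm38.p6, chr12:85473640-85473889, plus strand: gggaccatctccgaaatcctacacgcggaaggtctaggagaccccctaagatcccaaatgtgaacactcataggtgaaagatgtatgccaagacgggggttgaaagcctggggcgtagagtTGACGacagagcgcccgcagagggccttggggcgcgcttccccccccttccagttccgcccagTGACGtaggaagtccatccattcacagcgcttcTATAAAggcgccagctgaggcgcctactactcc
Fosb, GRCm38.p6, chr7:19310046-19310295, minus strand: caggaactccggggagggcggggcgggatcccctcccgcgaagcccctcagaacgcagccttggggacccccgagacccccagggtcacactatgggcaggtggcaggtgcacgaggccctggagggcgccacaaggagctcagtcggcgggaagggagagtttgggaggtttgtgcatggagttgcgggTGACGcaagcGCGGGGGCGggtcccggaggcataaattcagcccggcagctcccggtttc
Fosl2, GRCm38.p6, chr5:32136222-32136471, plus strand: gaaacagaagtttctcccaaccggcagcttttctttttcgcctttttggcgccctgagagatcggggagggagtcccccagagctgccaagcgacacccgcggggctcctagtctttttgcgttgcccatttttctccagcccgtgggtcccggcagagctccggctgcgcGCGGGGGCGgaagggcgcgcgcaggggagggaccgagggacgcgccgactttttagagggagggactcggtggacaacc
Atf3, GRCm38.p6, chr1:191183334-191183583, minus strand: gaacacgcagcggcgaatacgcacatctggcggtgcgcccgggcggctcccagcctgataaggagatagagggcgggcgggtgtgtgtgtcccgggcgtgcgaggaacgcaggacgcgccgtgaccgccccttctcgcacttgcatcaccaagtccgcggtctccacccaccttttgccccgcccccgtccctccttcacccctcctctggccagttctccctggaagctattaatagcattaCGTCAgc
Ier3, GRCm38.p6, chr17:35821463-35821712, plus strand: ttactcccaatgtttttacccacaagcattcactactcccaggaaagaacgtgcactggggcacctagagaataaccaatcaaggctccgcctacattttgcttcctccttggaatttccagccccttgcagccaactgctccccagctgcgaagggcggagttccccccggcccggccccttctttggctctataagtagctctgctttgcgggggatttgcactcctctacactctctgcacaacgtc

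In these windows the core TGACG was found in 4 of 8 member promoters, those of Atf3, Fos, Fosb and Junb, and in 17.8% of all 32851 promoters of the table. In Fos it lay 66 to 62 and 129 to 125 bases before the start, and TATAAA lay 33 to 28 bases before it. TATAAA was in 1 of 8 member windows and 12.4% of all. The letters GCGGGGGCG, a match to the Egr motif, lay 50 to 42 bases before the start of Fosb and 79 to 71 before that of Fosl2, so 2 of 8 windows held the motif against 4.7% of all. TGANTCA, TGACGTCA and the CArG box were in 0 of 8 windows, and in 6.75%, 1.55% and 1.47% of all promoters. Sites outside the 250 bases were not searched for any member, and Egr1 and Fosl1 have no window here. The window of Ier3 held none of the 6 motifs, which says only that these letters are not in its 250 bases. The 8 windows ran from 47.6% GC in Jund to 68.8% in Fosb, and 7 of 8 lay above the median of all promoters, 52.4%. With 8 windows these shares are a description, and the promoters they are set beside were not matched for GC. The motifs TGACG and TATAAA were added after values were seen.

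The arrays were close to each other and both had many readable spots. Of 59305 gene spots, 56.3% on the normal and 57.6% on the high glucose array were well above background, and 14178 of the named genes were measured on both arrays. Over gene spots, the 75th percentile of the processed signal, a linear intensity, was 913 on the normal glucose array against 869 on the other. Each array was scaled by its own 75th percentile, taken over probes after averaging their spots. A gene with slightly fewer signal units in high glucose can therefore have a ratio near 1. All ratios below are of scaled signals, high over normal glucose, on the log2 scale unless a fold is given. Of 10 pericyte markers 9 were measured, from Rgs5 with a processed signal of 93.9 in normal glucose to Cd248 with 61844. Pdgfrb read 17471. Kcnj8 stayed under that detection limit on both. Of 6 endothelial markers 3 were measured, Kdr with 7379 units in normal glucose, Pecam1 with 82.9 and Vwf with 74.0. The endothelial genes Cdh5, Tek and Cldn5 were not well above background. The fibroblast markers were measured 5 of 5 and the smooth muscle markers 5 of 5, so the markers do not set the cells apart from those types. Also measured were 3 of 4 Schwann, 3 of 4 immune and 2 of 4 epithelial markers. Among them, in normal glucose, S100b read 1349 units, Itgam 21959 and Krt5 45.8. In a bulk sample, fewer cells of a type and less RNA per cell cannot be told apart.

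At 72 h the early response genes were nearly level between the 2 pools. This reading does not cover the first minutes of the exposure. Their log2 ratios ran from -0.22 for Atf3 to 0.39 for Ier3, with a median of -0.05 over 10 genes, against -0.01 over all 14178 measured genes. Taken without sign, the median size of the ratio was larger for the members, 0.11 against 0.08 for all measured genes. In high glucose 4 members were higher and 6 lower, and 7 of 10 lay within 1.1-fold, as did 71.1% of all measured genes. Ier3 was the 1 member past 1.2-fold, or 10% of the members. Of all measured genes, 12.3% were past 1.2-fold in either direction, 6.8% higher and 5.52% lower. The members' share is near that background, and no member was past 1.5-fold, where 2.81% of all genes were. With each array centred on its median instead, every ratio was lower by 0.06, 2 members were higher and 8 lower, and the 964 genes higher and 782 lower past 1.2-fold became 711 and 1193.

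**Figure D1:**
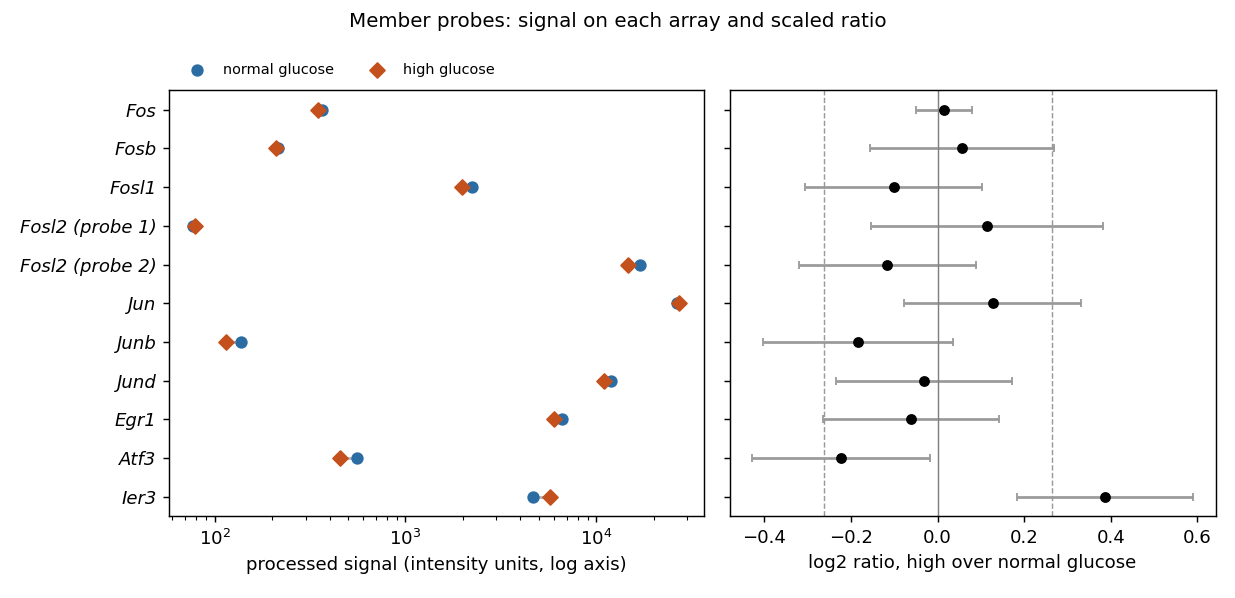
Left, processed signal (log axis) of each member probe in normal glucose (circles) and high glucose (diamonds), 1 array each, the mean of 10 spots for Fos. Right, the scaled log2 ratio with bars of 1 standard error from the scanner software, dashed lines at 1.2-fold; only Ier3, at 0.39, lies outside them. Levels of different probes are not comparable with each other.

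How far a ratio can be trusted was read in 2 ways, both of which cover error within an array and neither the difference between cultures. The scanner software gave each member spot an error of 10% to 13.5% of its signal, so a ratio of single spots had a standard error of 0.20 to 0.27. By that measure 2 of 10 members, Atf3 and Ier3, lay more than 1 standard error from 0, and none lay more than 2. Probes printed 10 times gave a measured error, which was smaller than the scanner's for mean signals of 128 and above but not below. The SD of a spot's log2 ratio had a median of 0.29 for probes with mean signals under 128, then 0.10 up to 512, 0.04 up to 4096 and 0.03 beyond. Of the members, 1 (Junb), 3 (Fos, Fosb and Atf3), 1 (Fosl1) and 5 (Fosl2, Jun, Jund, Egr1 and Ier3) fall in these ranges. Past 1.2-fold were 40.5% of all genes in the lowest range and 2.48% in the highest.

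**Figure D2:**
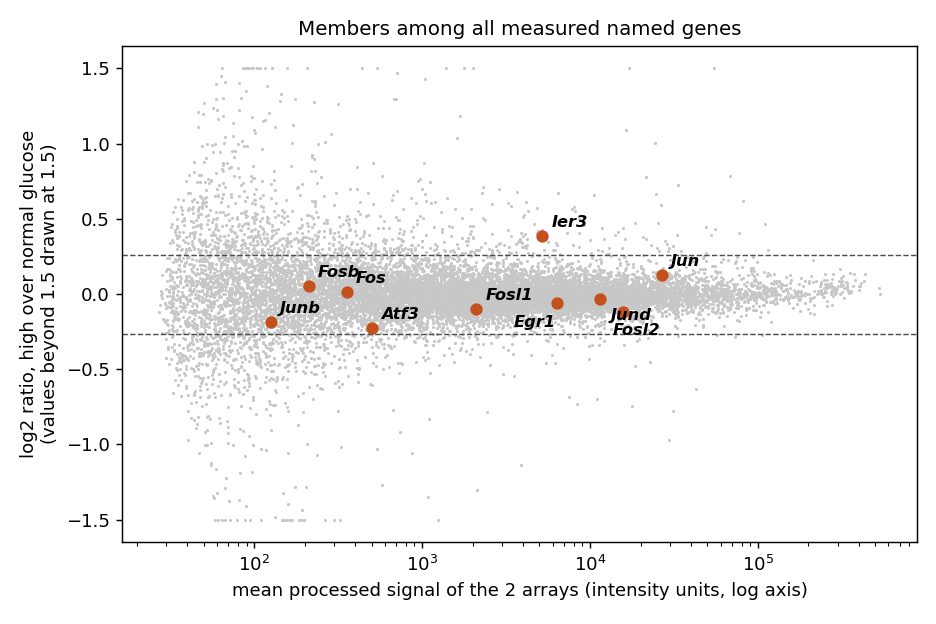
Log2 ratio of high over normal glucose against the mean processed signal of the 2 arrays (log axis) for 14178 measured named genes (grey) and the 10 members (coloured, labelled); dashed lines mark 1.2-fold. The grey cloud narrows toward high signals, and Ier3 lies above its bulk while the other members lie inside it.

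Among the Fos family, which supplies AP-1 subunits that do not pair with themselves, Fos itself had the smallest scanner standard error, 0.07. Its probe was printed 10 times on each array. In normal glucose the 10 spots gave a lowest processed signal of 335, a median of 369 and a highest of 387, with a mean of 365 ± 16.6 (SD, n = 10 spots). In high glucose the lowest was 300.4, the median 349 and the highest 389, with a mean of 349 ± 25.5 (SD, n = 10 spots). The spots of the 2 arrays overlapped over most of their range. After scaling, 5 spots had a higher and 5 a lower ratio, with a mean log2 ratio of 0.01 ± 0.12 (SD, n = 10 spots) and a standard error of the mean of 0.04. The SD of the Fos spots was larger than that of 59.6% of the probes printed 10 times in its signal range. A difference of Fos beyond this spot error was not detected, and these spots share 1 pool per condition.

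**Figure D3:**
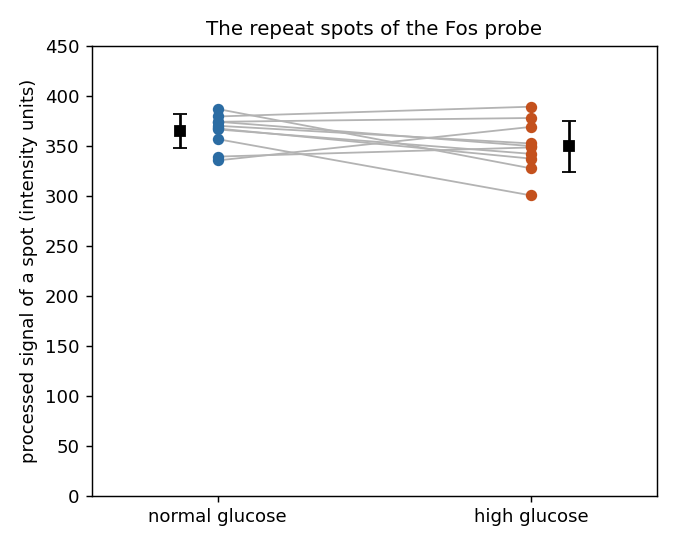
Processed signal of the 10 spots of the Fos probe in normal and high glucose before scaling, with lines joining the spot at the same position on each array; squares and bars are the mean and SD. The spots run from 335 to 387 in normal and from 300.4 to 389 in high glucose and overlap.

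Fosb, a close relative of Fos with a strong activating domain, read 214 units of processed signal in normal glucose and 210.1 in high glucose. Its log2 ratio was 0.06, with a scanner standard error of 0.21. Fosl1, which encodes Fra-1, a Fos protein without that domain, read 2236 in normal glucose against 1973 in high. The ratio of -0.10 had a scanner standard error of 0.20. It was 2.30 times the spot SD of its signal range in size, and 34.7% of genes in that range lay at least as far from 0. Fosl2, which encodes the related Fra-2, was read by 2 probes that pointed in different directions. The probe with the higher signal read 16885 in normal glucose against 14736 in high, a log2 ratio of -0.12 with a scanner standard error of 0.20. The other had 77.4 and 79.3, a log2 ratio of 0.11 with a scanner standard error of 0.27. Each ratio is smaller than its scanner error, which by that measure leaves both directions undetermined. The 4 Fos family genes had a median of -0.04, with 2 higher and 2 lower; with median centring Fos and Fosb were on the lower side as well.

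Of the Jun family, the DNA-binding core of AP-1, Jun was slightly higher and Junb and Jund slightly lower, in all 10 settings tried. Those settings reread the same spots, 1 per array for each gene, and are not a second reading. Jun, the most potent activator of the 3, read 26403 in normal glucose against 27281 in high. Its log2 ratio was 0.13, or 1.09-fold, with a scanner standard error of 0.20. That is 3.98 times the spot SD in its range, where 13.4% of genes lay at least as far from 0. Junb, which often restrains Jun, read 138 in normal glucose against 115 in high, a log2 ratio of -0.18. Its scanner standard error was 0.22. In its signal range 54.6% of genes differed by as much or more. That share depends on the range, since the mean signal of Junb lies just under the limit of 128. Past 1.2-fold were 40.5% of genes in its range and 19% in the next. Jund, the member of the family that is expressed most steadily in resting cells, read 11907 in normal glucose against 11025 in high. Its log2 ratio was -0.03, with a scanner standard error of 0.20. In its signal range 66.4% of genes lay at least as far from 0. The median of the 3 was -0.03.

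Egr1, a zinc finger factor induced through SRF sites, and Atf3, a factor of the ATF family induced by many stresses, were both on the lower side in all 10 settings tried. Those settings reread the same spots and are not a second reading. The Egr1 probe read 6641 in normal glucose against 6022 in high. Its log2 ratio of -0.06 was matched or exceeded in size by 42.2% of genes in its signal range. Atf3 read 559 in normal glucose against 453 in high, 1.17-fold lower in high glucose, a log2 ratio of -0.22 with a scanner standard error of 0.21. It was the lowest of the 10 ratios, and 24.5% of genes in its range lay at least as far from 0. That share depends on the range, since the mean signal of Atf3, 506, lies just under the limit of 512. Past 1.2-fold were 19% of genes in its range and 6.26% in the next. The median pixel of the Atf3 spot, less local background, gave -0.15. Spots around it that were well above background had a median ratio of 0.07 (n = 10 spots).

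Ier3, which encodes a small stress-inducible protein that modulates survival and ERK signalling and is a known target of NF-kB, was the member with the largest difference. Its probe read 4652 in normal glucose against 5753 in high. After scaling it was 1.31-fold higher in high glucose, a log2 ratio of 0.39 with a scanner standard error of 0.20. The difference was 12.1 times the spot SD for its signal range. In that range, above 4096, 1.65% of 4715 genes were past 1.2-fold higher, and 1.12% lay at least as far from 0 as Ier3 in either direction. Over all signals, 516 of 14178 measured genes had a ratio at least as high. The median pixel of the spot gave 0.35, the spots around it had a median of -0.04 (n = 11 spots), and no outlier flag was set. Ier3 has 1 probe printed once, so its value has no second reading. Without it the median of the other 9 members was -0.06.

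Genes that work with the members were examined in 6 lists, which hold 100 distinct genes, 93 of them measured. Past 1.2-fold were 5 higher and 1 lower, or 6.45% of the measured ones, where 12.3% of all measured genes were past it. Within the brighter genes, those above the median level, the order turned, with 3 of 60 list genes past 1.2-fold against 3.13% of all such genes. The median over the 93 was 0.00. The list medians below lie close to 0, and median centring put all 6 below 0, from -0.10 to -0.03.

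The AP-1 partners, other leucine zipper proteins that pair with Jun or Fos, had 8 of 11 members measured, 4 higher and 4 lower, and a median of 0.00. Jdp2, a Jun dimerisation partner that represses AP-1 sites, was the 1 gene past 1.2-fold. It read 4287 in normal glucose against 4902 in high, a log2 ratio of 0.27, or 1.21-fold, from 1 probe. With median centring, which lowers every ratio by 0.06, Jdp2 falls within 1.2-fold. Maf had 0.15 and Batf -0.09, the latter from signals of 38.4 and 34.2 and with -0.18 by its median pixel. Batf2 was well above background in high glucose only, Batf3 on neither array, and Atf7 has no named probe. In the list of Egr relatives and corepressors 4 of 6 genes were measured, with a median of -0.04 and none past 1.2-fold. Nab1, a corepressor of Egr proteins, had 0.07 (0.01 by its median pixel), Egr2 -0.07 and Egr4 -0.01. Egr3 and Wt1 were not well above background.

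**Figure D4:**
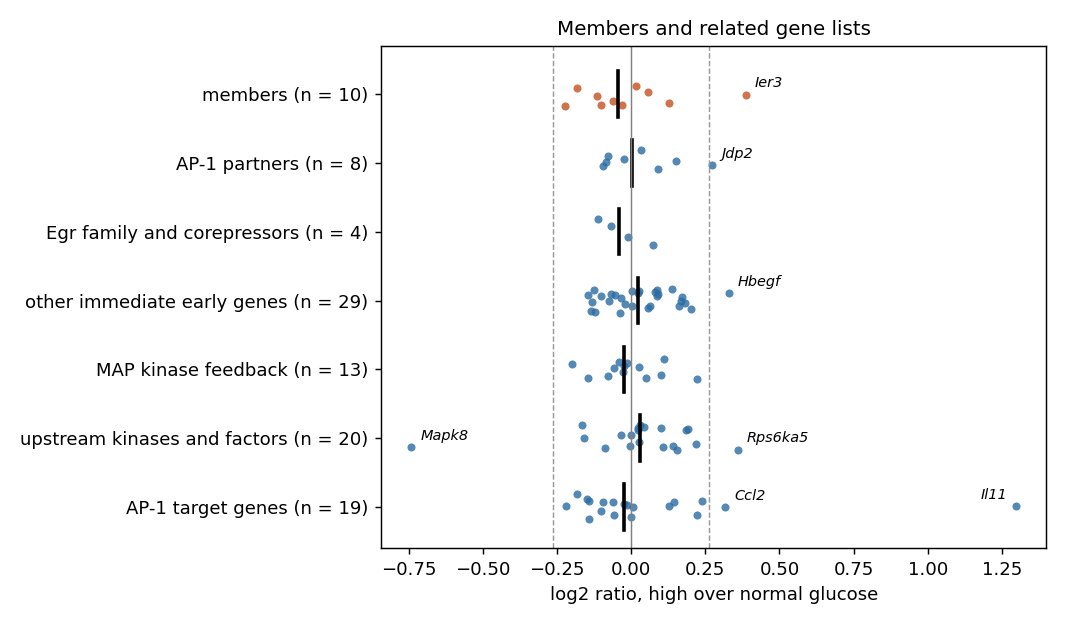
Log2 ratio of high over normal glucose for the measured genes of the members and of 6 related lists; each point is a gene, thick bars are medians and dashed lines mark 1.2-fold. The medians run from -0.05 for the members to 0.03 for the upstream kinases and factors, and the labelled genes are those past 1.2-fold.

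Other immediate early genes had 29 of 30 measured, 17 higher and 12 lower, with a median of 0.02. Hbegf, a heparin-binding growth factor of the EGF family, was the 1 gene past 1.2-fold. It read 5775 in normal glucose against 6866 in high, a log2 ratio of 0.33. Zfp36, which encodes an mRNA-decay factor, had 0.20. Gem, a small GTPase gene, had 0.18 and its second probe 0.19. Further genes of this list are named after their values were seen. The growth regulator Myc had -0.04, the nuclear receptor gene Nr4a1 0.17, and the SRF and YAP targets Ccn1 and Ccn2 0.00 and -0.07. Nr4a3 was not well above background.

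Genes of the MAP kinase pathway were measured in full. Of 13 feedback genes, which the pathway induces and which then dampen it, 5 were higher and 8 lower, with a median of -0.03 and none past 1.2-fold. Dusp1, a phosphatase of p38 and JNK that is itself an immediate early gene, had 0.22 with readings of 8099 and 8935 units. Dusp2 had -0.20 and Spry2 -0.14. Of 20 upstream kinases and factors, 13 were higher and 7 lower, with a median of 0.03. Rps6ka5, which encodes the kinase MSK1, had a log2 ratio of 0.36 with signals of 139 and 169, but 0.22 by its median pixel, which is not past 1.2-fold. Mrtfa, an SRF coactivator gene, had 0.22 with 0.07 at its second probe.

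Mapk8, which encodes the JNK1 kinase that phosphorylates Jun, was the gene of all 6 lists with the lowest ratio. Its probe with the highest signal read 107 in normal glucose against 60.3 in high, 1.67-fold lower, a log2 ratio of -0.74. The other 2 probes gave -0.54 and -0.21. A shared sign was a condition for naming a list gene by its ratio, so that agreement adds no support. The spot SD in the signal range of the first probe was 0.29, and 40.5% of all genes in that range were past 1.2-fold. Mapk9, which encodes JNK2, had -0.17 and -0.22 at its 2 probes, and was named after its values were seen.

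Genes that AP-1 is known to induce had 19 of 20 measured, 7 higher and 12 lower, with a median of -0.03. Past 1.2-fold were 2 genes, both higher. Il11, a cytokine of the IL-6 family, read 421 in normal glucose against 979.9 in high, 2.46-fold higher, a log2 ratio of 1.30. It was the 1 listed gene past 2-fold, where 0.917% of all measured genes were. The lists were chosen with earlier results of these data known, so that count is not independent of them. Ccl2, a monocyte chemokine gene, had 28735 and 33864, a log2 ratio of 0.32. With median centring Ccl2 falls just within 1.2-fold, and Mmp13, given below, passes it on the lower side. Mmp3, which encodes the protease stromelysin, had 0.24, and 0.13 by its median pixel. Others are named after their values were seen. The protease gene Mmp10 had 0.22 and the matrix protein gene Spp1 0.14, while Ccnd1, the cyclin D1 gene, had -0.06, Timp1 -0.10 and the collagenase gene Mmp13 -0.22. Mmp9 was not well above background.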

How the data were processed

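RNA pools of mouse cavernous pericytes in normal and high glucose were measured on 1 Agilent array each. Both arrays lay on 1 slide and share a scan time. Per the file headers, the deposited processed signal is a linear intensity made with Feature Extraction 11.5.1.1, background-subtracted and detrended, with small positive values in place of low ones; version 9.3.2.1 stands in the submitters' processing notes. The 0 or 1 spot flags are that software's. The authors' deposited value table held the same intensity for 55249 of 55249 probes with 1 spot, within a relative tolerance of 0.0001; it is linear, uncentred, and its medians were 49.6 and 48.9.

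Log2 signals of 55681 probes were averaged over spots, and each array's 75th percentile was subtracted. Accessions were matched to RefSeq genes of GRCm38.p6, naming 27509 probes with 1 symbol and 28172 with none. The array design names mm9, so coordinates are given only for RefSeq promoters. A probe counted as measured when at least 0.5 of its spots were well above background on both arrays, and a gene took its probe with the highest mean level. The named genes were every member and, in each list, the 3 measured genes with the largest ratio whose probes share a sign. Members and lists were chosen with earlier results of these data known. The neighbouring spots, within 2 rows and columns, the signal ranges and the motifs TGACG and TATAAA were chosen after values were seen. No test was run with 1 array per group, and precision is limited by the number of arrays. The steps were tested on simulated data. Alternatives, run with numpy 2.4.6, pandas 2.3.3 and limma 3.58.1, were other scalings, background corrections, filters, folds and probe choices. Mean spot signals were not used here, so normexp took median ones. Protein sequences were not used here, and 1 gene of the lists is not reported by name.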

Additional observations from a re-analysis of the deposited data

How the results depend on the processing

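Over 9 other ways of scaling, correcting or summarising the spots, the ratio of Ier3 ran from 0.31 to 0.40 and that of Atf3 from -0.30 to -0.13. The sign was the same in all 10 settings for 8 of 11 member probes; the exceptions were Fos, with a range of -0.07 to 0.02, Fosb, with -0.05 to 0.06, and the Fosl2 probe with the lower signal, with -0.07 to 0.12. The median of the members was -0.11 with median centring and -0.13 with no scaling between arrays. Members past 1.2-fold were 2 of 10 with median centring (Atf3 and Ier3), against 13.4% of all genes, and 3 of 10 with no scaling (Atf3, Ier3 and Junb), against 14.2%. At 1.5-fold and at 2-fold there were 0 members. The 6 list genes past 1.2-fold of 93 became 10 of 99 with no filter on dim probes, against 20.9% of all genes, 3 of 60 among genes brighter than the median gene, against 3.13%, 2 at 1.5-fold and 1 at 2-fold. Under the other settings the members' median moved by less than the overall spot SD of 0.046, and both counts stayed within 1.5 times their reported values. Of 99 probe values under the alternatives, 80 moved by less than the spot SD of their signal range and 19 by more. All settings reread the same spots. The deposited value table holds the same intensities for probes with 1 spot, and no member spot carried an outlier flag. The settings that used that table or left out flagged spots could therefore hardly move a member, and their values are among the 80. The cause of these shifts was not tested. No paired analysis was possible because each group has 1 array.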
